A study of Homo sapiens with 6 samples.

Results

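The genes described here are 10 regulators of the epithelial and mesenchymal states of a cell, taken by symbol from a count table of 26490 gene symbols. The mesenchymal group holds ZEB1, ZEB2, SNAI1, SNAI2 and TWIST1, and the epithelial group holds ESRP1, ESRP2, OVOL1, OVOL2 and GRHL2. RNA was measured by sequencing in SW403, an established human colon adenocarcinoma line, in a series that asks about the role of IRS2 in the spread of colorectal cancer to the brain. IRS2 encodes an adaptor protein of insulin and IGF1 receptor signalling. The control group (genotype WT, 3 libraries) had normal IRS2 expression and the knockdown group (genotype IRS2_knockdown, 3 libraries) had lowered IRS2. Both groups were untreated and were kept for 24 h in DMEM with 10% serum. The sample titles name a knockdown, while the sample descriptions read IRS2KO, and how IRS2 was lowered is not given in the labels. Whether a group's cultures represent more than a single line or clone is not given either, so p-values measure the spread between these cultures.

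Cells of an epithelium can lose their junctions and gain the shape and motility of mesenchymal cells, and the 10 genes form much of the switch between these states. ZEB1, ZEB2, SNAI1 and SNAI2 encode zinc finger proteins that bind E-box sequences and repress epithelial genes such as CDH1, and TWIST1 encodes a basic helix-loop-helix factor that acts as a dimer. On the epithelial side, GRHL2 and the OVOL proteins maintain epithelial transcription and repress ZEB1, while ESRP1 and ESRP2 are RNA-binding proteins that set epithelial exon choice. The miR-200 family of microRNAs and the ZEB genes repress each other, and the family acts on ZEB1 and ZEB2 through sites in their 3′ untranslated regions (UTRs).

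The microRNA sequences and the sites are shown because they are the regulatory input that ZEB1 and ZEB2 are known to share, while these genes moved in opposite directions in the data below. The family falls into 2 groups by its seed, bases 2 to 8 of the mature microRNA, printed in capitals (RefSeq, GRCh38.p14).
hsa-miR-200b-3p: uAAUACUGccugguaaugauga
hsa-miR-200c-3p: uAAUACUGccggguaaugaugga
hsa-miR-429: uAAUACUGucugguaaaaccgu
hsa-miR-200a-3p: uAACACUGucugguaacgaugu
hsa-miR-141-3p: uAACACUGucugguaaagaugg

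The letters that pair with the seed of miR-200b, miR-200c and miR-429 are CAGTATT, and those that pair with the seed of miR-200a and miR-141 are CAGTGTT. These were searched on the sense strand of the 3′ UTR of the canonical GENCODE transcript (version 44, GRCh37), where the strings differ at 1 letter and never share a start. The first site of each kind that is followed by A is printed for both genes, with the match in capitals.
ZEB1 CAGTATT site, chr10:31816551-31816577, plus strand: tttatcttatCAGTATTatcactctta
ZEB1 CAGTGTT site, chr10:31817715-31817741, plus strand: tttgatttaaCAGTGTTatgttaacat
ZEB2 CAGTATT site, chr2:145146547-145146573, minus strand: tacaatgcatCAGTATTatgattcctc
ZEB2 CAGTGTT site, chr2:145146794-145146820, minus strand: aaattttgtaCAGTGTTaaggcctaaa

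ZEB1 held 6 CAGTATT and 3 CAGTGTT matches in a 3′ UTR of 2540 nt. ZEB2 held 5 and 4 matches in a 3′ UTR of 5370 nt, so each gene had 9 in all. Among the 1912 other tested genes with a 3′ UTR of 0.8 to 1.25 times the length of ZEB1's, 29.4% held CAGTATT, 29.9% held CAGTGTT and 48.8% held either. None of these 1912 held 9 matches. Among the 992 tested genes with a 3′ UTR of like length to ZEB2's, the shares were 47.0%, 52.9% and 74.1%, and 1 gene held as many. A match is a string of letters in an annotated transcript, and no binding was measured. The libraries were prepared for long RNA rather than mature microRNA. Of the 8 host and precursor symbols of the miR-200 and miR-205 families in the table, 6 had no read in any library, MIR200CHG had 2 reads in all and MIR429 had 1.

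**Figure D1:**
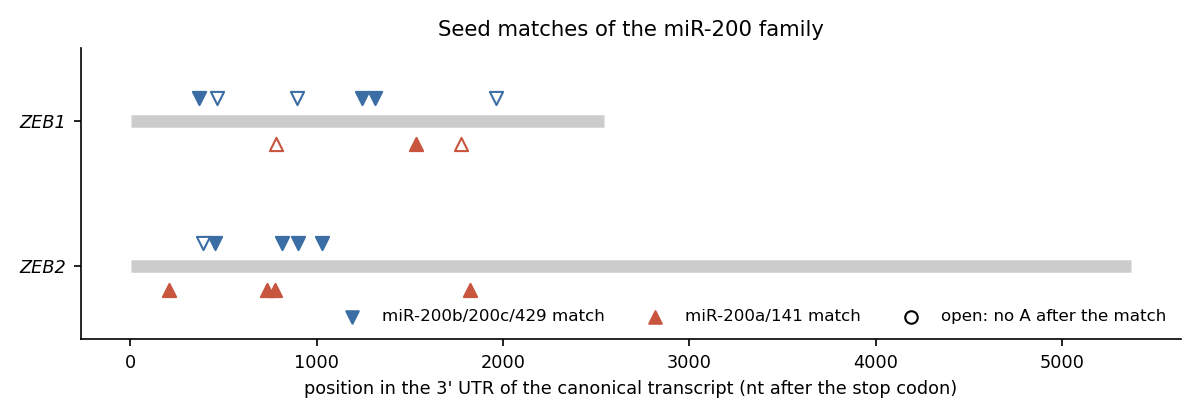
Positions of the miR-200 family seed matches in the 3′ UTR of ZEB1 and ZEB2 (x axis, nucleotides after the stop codon; gray bars, the UTR). Triangles above each bar are matches of the miR-200b, miR-200c and miR-429 seed, triangles below are matches of the miR-200a and miR-141 seed, and open triangles lack an A after the match; both genes carry 9 matches.

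Library totals were 11816973 to 12585013 counts in control and 14329348 to 18114656 in knockdown, so every knockdown library was deeper. Differential expression was tested with edgeR over the 13832 genes that passed a low-count filter, at an adjusted p threshold of 0.05. By this rule 38.5% of tested genes were called, 19.3% higher and 19.2% lower in knockdown, and the median log2 fold change of all tested genes was -0.00. IRS2 itself, on chromosome 13, was at 32.4, 34.8 and 32.2 CPM (counts scaled to each library's total) in control and at 13.0, 12.3 and 11.9 in knockdown. Of 12 colon epithelial markers, KRT8, KRT18, KRT19, EPCAM and CDX2 were well expressed, but KRT20, CDX1 and CEACAM5 had no read in any library. CDH1 had 0 to 5 reads, LGALS4 had 3 reads in 1 knockdown library and none elsewhere, CDH17 had 1 to 11 reads, and VIL1 was at 3.26 to 5.74 CPM. The labelled colon epithelial origin was thus matched by 5 of the 12 markers at a high level and not by the 6 at or near 0. The summed level of the epithelial markers was 2537 to 2637 CPM in control and 2364 to 2456 CPM in knockdown. Among the markers of other cell types, the 6 endothelial markers summed to 0.508 to 1.11 CPM in control and 0.558 to 0.773 CPM in knockdown. Of these, PECAM1 and CDH5 had no read, and VWF had 4 to 11 reads per library. The leukocyte list summed to 2.39 to 3.81 CPM in control and 3.04 to 3.49 CPM in knockdown. The 9 fibroblast markers summed to 28.2 CPM in control library 1, 11.3 and 9.56 CPM in the other control libraries and 5.98 to 7.45 CPM in knockdown. The high value came from collagen genes, with 193, 72 and 67 COL1A1 reads and 86, 11 and 3 COL1A2 reads in the control libraries.

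The mesenchymal regulators did not move as a group. ZEB1 and SNAI1, the better expressed members, were modestly higher in knockdown (1.199-fold and 1.211-fold), while ZEB2 and TWIST1, at low levels, were lower by 3.16-fold and 2.596-fold. Of the 5 members, 4 passed the low-count filter and were tested. All of these were called, 2 in each direction, beside 19.3% called higher and 19.2% called lower among all tested genes. The lower call of TWIST1 adds nothing to this count, because TWIST1 passed the filter through its control libraries alone, which leaves ZEB1 and SNAI1 higher and ZEB2 lower. In the epithelial group only ESRP2 was expressed at a level that could be tested, and it was not called. The median log2 fold change of the 4 tested mesenchymal genes was -0.56, which describes none of them, since they lie on both sides of 0. The control and knockdown values did not overlap for any of the 5 mesenchymal genes and overlapped for all 5 epithelial genes, OVOL1 having no reads. Of the tested members, the values did not overlap for any of the 4 mesenchymal genes, TWIST1 included, and overlapped for ESRP2. Among all tested genes, 48.4% showed no overlap. The untested SNAI2 and the other epithelial genes held 0 to 14 reads per library.

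**Figure D2:**
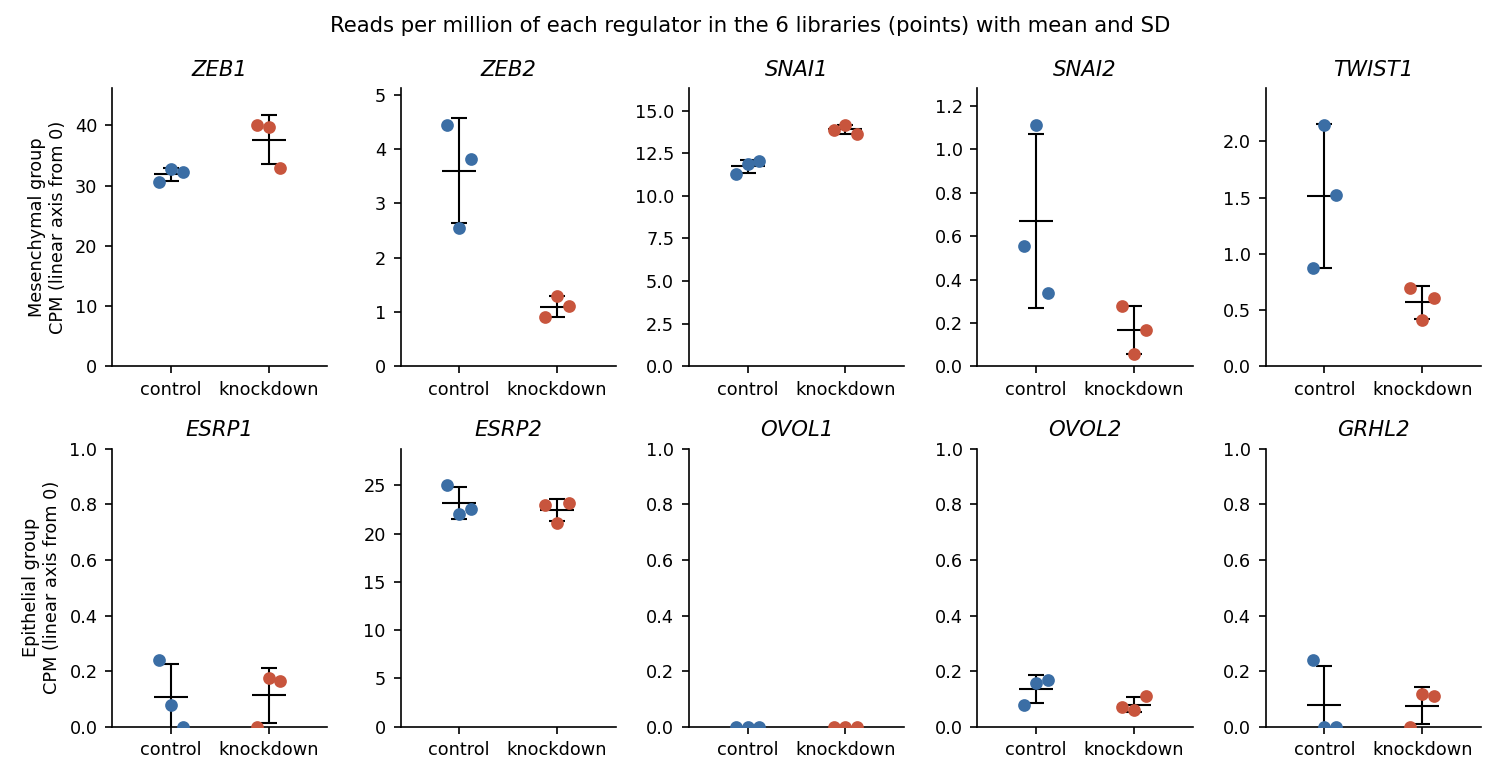
CPM of each regulator in the 3 control (blue) and 3 knockdown (red) libraries, on linear axes that start at 0 and differ between panels; bars give the mean and SD of 3 libraries. ZEB1 and SNAI1 sit higher in knockdown, ZEB2, SNAI2 and TWIST1 sit lower, and 4 of the 5 epithelial genes stay below 0.3 CPM.

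ZEB1 (chromosome 10, 31607424 to 31818742, plus strand, GRCh37; 9 exons in the canonical transcript) was at 30.7, 32.7 and 32.3 CPM in the control libraries and at 40.1, 39.7 and 33.0 CPM in the knockdown libraries. The groups did not overlap, but knockdown library 3 lay just above the highest control library. The means were 31.9 ± 1.09 and 37.6 ± 4.03 CPM (SD, n = 3 each). ZEB1 rose by a log2 fold change of 0.26 ± 0.07 (SE; 95% interval 0.11 to 0.41; edgeR adjusted p 0.00629). Over the 16 alternative analyses the value ran from 0.22 to 0.35 and the adjusted p from 0.000122 to 0.0449, so the call was kept in each. ZEB1-AS1, a gene on the opposite strand that overlaps ZEB1 over 396 nt, had 7.22 CPM on average in control and 6.79 in knockdown. The strand setting of the counts is not given in the sources used here, so reads in the shared stretch cannot be told apart.

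ZEB2 (chromosome 2, 145121931 to 145278624, minus strand) behaved differently from its paralogue. It had 56, 32 and 45 reads in control and 13, 22 and 20 reads in the deeper knockdown libraries. This corresponds to 4.45, 2.55 and 3.81 CPM in control and 0.907, 1.29 and 1.10 CPM in knockdown. Every knockdown library was below the lowest control library. ZEB2 fell from 3.60 ± 0.968 to 1.10 ± 0.191 CPM (SD, n = 3 each), a log2 fold change of -1.66 ± 0.25 (SE; 95% interval -2.19 to -1.13; edgeR adjusted p 3.78e-05). Of all tested genes 4.32% were called and at least 2-fold lower, and 0.586% were called and at least 2-fold higher. ZEB2 has a mean of 31.3 reads, and among the tested genes with a mean under 50 reads 24.6% were called lower and the median log2 fold change was -0.19. Without control library 1, the library with the high collagen counts, ZEB2 had a log2 fold change of -1.48 (edgeR adjusted p 0.000671). The antisense gene ZEB2-AS1 had no read in any library.

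The ratio of ZEB1 to ZEB2, computed from CPM per kb of canonical transcript, was 10.8, 20.0 and 13.2 in the control libraries and 69.0, 48.1 and 46.6 in the knockdown libraries. ZEB1 was therefore the predominant ZEB transcript in all 6 libraries, by a wider margin in the knockdown libraries. By a rule of likeness over the 6 libraries (Euclidean distance between log2 CPM profiles centred on their means), the genes nearest to ZEB2 among 10449 candidates were ALCAM, JAM3 and CSRP2. ALCAM, a cell adhesion molecule gene, had a distance of 0.53 and went from 14.5 ± 0.408 to 4.66 ± 0.600 CPM (SD, n = 3 each). JAM3, a junctional adhesion molecule gene, went from 13.4 ± 0.681 to 5.10 ± 0.805 CPM, and CSRP2, a LIM protein gene, from 22.0 ± 1.47 to 8.10 ± 0.817 CPM (SD, n = 3 each). The lower values of these genes in knockdown follow from their choice by likeness to ZEB2.

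SNAI1 (chromosome 20, 48599517 to 48605423, plus strand), the Snail gene, was at 11.28, 11.86 and 12.02 CPM in control and at 13.89, 14.18 and 13.64 CPM in knockdown. All knockdown libraries lay above all control libraries, and the spread within each group was small (11.7 ± 0.387 and 13.9 ± 0.273 CPM, SD, n = 3 each). SNAI1 rose by a log2 fold change of 0.28 ± 0.09 (SE; 95% interval 0.09 to 0.46; edgeR adjusted p 0.0163). This call was close to the threshold. It was lost with the Wald test of DESeq2 (0.28, adjusted p 0.107), without control library 1 (0.25, edgeR adjusted p 0.0607) and without knockdown library 2 (0.26, edgeR adjusted p 0.0592), with the direction kept.

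SNAI2, the Slug gene, was near the limit of detection, with 7, 14 and 4 reads in control and 4, 1 and 3 reads in knockdown. The summed level was 0.676 CPM in control (exact Poisson 95% interval 0.438 to 0.998) and 0.162 CPM in knockdown (0.0698 to 0.318), intervals that cover counting error only. SNAI2 did not pass the low-count filter, and only 1 control library reached the filter's level of 0.743 CPM. An exact permutation test of its CPM gave a two-sided p of 0.1, the smallest that 3 libraries against 3 can give. In the fit without a filter it had a log2 fold change of -1.96 ± 0.62 (SE; edgeR adjusted p 0.00748). For ZEB2 that fit gave an edgeR adjusted p of 6.55e-10 in place of 3.78e-05, and for SNAI1 0.0151 in place of 0.0163. The adjusted p of SNAI2 from that fit is therefore not comparable with those of the main fit. SNAI3, the third member of the family, had 1 to 5 reads in every library.

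TWIST1 (chromosome 7, 19060614 to 19157259, minus strand) had 11, 27 and 18 reads in control and 10, 7 and 11 reads in knockdown. In CPM the control libraries were at 0.874, 2.15 and 1.52 and the knockdown libraries at 0.698, 0.410 and 0.607. The groups did not overlap, and the control libraries were widely spread (1.52 ± 0.638 against 0.572 ± 0.147 CPM, SD, n = 3 each). TWIST1 fell by a log2 fold change of -1.38 ± 0.37 (SE; 95% interval -2.15 to -0.60; edgeR adjusted p 0.00604). As it passed the filter through its control libraries alone, a tested TWIST1 had to be lower in knockdown, and the call is no independent sign of direction. Without control library 2 the log2 fold change was -1.03 and the edgeR adjusted p 0.0675, and without control library 1 they were -1.66 and 0.00183. Its paralogue TWIST2 was at 2.54, 2.95 and 2.79 CPM in control and at 1.33, 1.58 and 0.994 CPM in knockdown, and it fell too (log2 fold change -1.06 ± 0.24, SE; edgeR adjusted p 0.00167).

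In the epithelial group ESRP2 was the single gene with more than a few reads. ESRP2 (chromosome 16, 68262936 to 68272005, minus strand) was at 25.0, 22.0 and 22.5 CPM in control and at 23.0, 21.1 and 23.1 CPM in knockdown. The groups overlapped, with means of 23.2 ± 1.63 against 22.4 ± 1.13 CPM (SD, n = 3 each). The log2 fold change was -0.02 (edgeR adjusted p 0.855), and its 95% interval of -0.17 to 0.13 corresponds to a fold of 0.887 to 1.10. The sign was positive without control library 1 (0.04) and without knockdown library 2 (0.02). NFATC3 on the opposite strand shares 227 nt with ESRP2 and averaged 64.1 CPM in control and 67.3 in knockdown. The genes with the nearest profiles to ESRP2 among 10448 candidates were BID, MTERF4 and ECI1, at distances of 0.0526 to 0.0559. None of these was called, which follows from their choice by likeness to an uncalled gene.

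The other epithelial regulators were at the edge of detection in both groups. ESRP1 had 3, 1 and 0 reads in control and 0, 3 and 3 in knockdown. OVOL2 had 1, 2 and 2 reads against 1, 1 and 2, and GRHL2 had 3, 0 and 0 reads against 0, 2 and 2. OVOL1 had no read in any library, which allows a level of up to 0.0812 CPM in control and 0.0606 CPM in knockdown (3 counts over each group's summed libraries). At this depth no difference was detectable for these 4 genes, and in the fit without a filter none of ESRP1, OVOL2 and GRHL2 was called (edgeR adjusted p 0.718 to 0.988). Of their relatives, OVOL3 and GRHL3 had 0 to 3 reads in each library. GRHL1, the grainyhead gene that was expressed, had 3.82 ± 0.557 CPM in control against 3.55 ± 0.0536 in knockdown (SD, n = 3 each; log2 fold change -0.07, edgeR adjusted p 0.780).

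Levels can be compared between genes only per length, here as CPM per kb of the canonical transcript. SNAI1 was the highest of the 10 (6.87 ± 0.227 in control, 8.15 ± 0.160 in knockdown), followed by ESRP2 (6.76 ± 0.476 and 6.53 ± 0.329) and ZEB1 (5.37 ± 0.183 and 6.33 ± 0.679; SD, n = 3 each). These 3 genes lay between the percentiles 38.8 and 48.8 of all tested genes in both groups. A wide gap separated them from TWIST1 (0.930 and 0.351), ZEB2 (0.389 and 0.119) and SNAI2 (0.307 and 0.0770). OVOL2, ESRP1, GRHL2 and OVOL1 were the lowest, at means of at most 0.0859. The order of means was the same in both groups. In control, SNAI1 and ESRP2 overlapped, as did ZEB2 and SNAI2 and each neighbour from OVOL2 down. In knockdown, ESRP2 overlapped ZEB1 rather than SNAI1, and each neighbour from ZEB2 down overlapped the next.

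**Figure D3:**
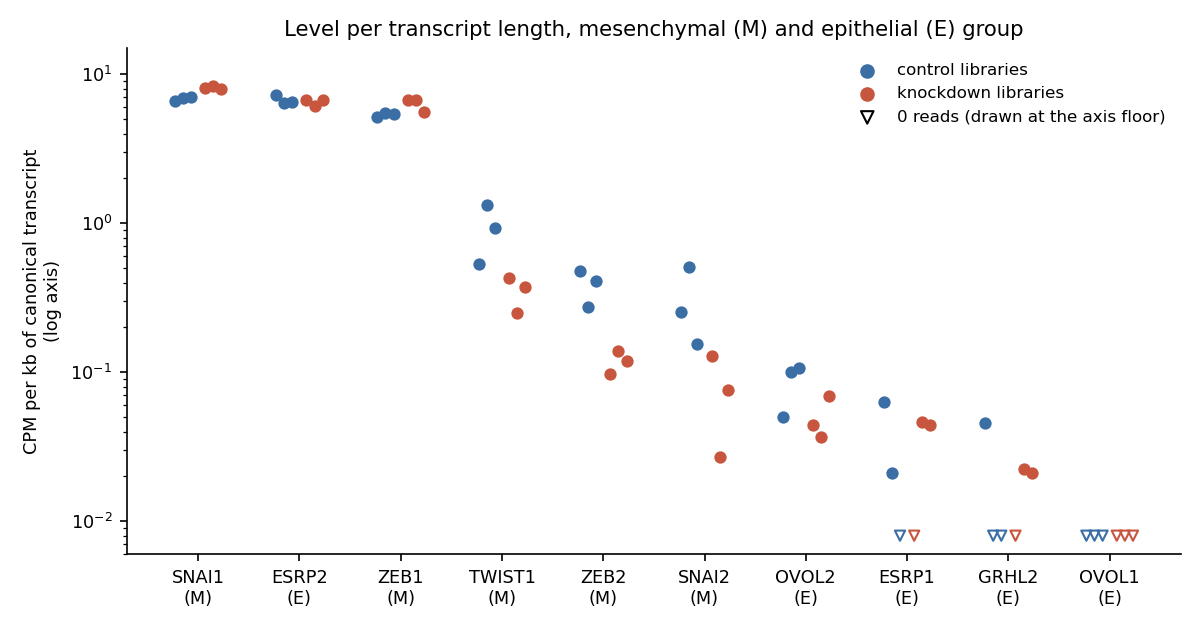
CPM per kb of canonical transcript (log axis) of the 10 genes in each control (blue) and knockdown (red) library, ordered by control mean, with M for the mesenchymal and E for the epithelial group. SNAI1, ESRP2 and ZEB1 stand near 5 to 8 CPM per kb, the other genes lie below 1.5, and open triangles mark libraries with 0 reads, drawn at the axis floor.

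The 2 groups were set against each other in each library by the mean log2 CPM (prior count 2) of the 5 epithelial genes minus that of the 5 mesenchymal genes. This difference was -2.67, -3.35 and -3.20 in the control libraries and -2.79, -2.18 and -2.21 in the knockdown libraries. The groups overlapped, since control library 1 lay above knockdown library 1. The mean difference moved by 0.68 towards the epithelial side, or by 0.52 with only the 5 tested genes. These include TWIST1, which passed the filter through its control libraries alone, so the filter sets part of the 0.52. The difference over all members mixes a rise of ZEB1 and SNAI1 with lower values of the 3 low mesenchymal genes. Of its 5 epithelial terms, 4 rest on 0 to 3 reads per library. It is given as a description with no test.

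TWIST1 acts within a network of helix-loop-helix proteins, where E proteins (TCF3, TCF4, TCF12) pair with it and ID proteins sequester E proteins. Of the 12 paralogues and partners listed, 9 were tested, 2 were called higher and 5 lower (median log2 fold change -0.29). The shares among all tested genes were 19.3% higher and 19.2% lower. TCF4, which encodes the E protein E2-2, was at 7.07, 6.21 and 7.45 CPM in control and at 1.40, 2.23 and 1.60 CPM in knockdown (log2 fold change -1.94 ± 0.19, SE; edgeR adjusted p 1.48e-07). ID3 fell from 17.1 ± 0.470 to 4.71 ± 0.190 CPM and ID4 from 16.2 ± 0.993 to 4.68 ± 0.491 CPM (SD, n = 3 each). For both of these ID genes the highest knockdown library was below every control library by more than 2-fold. The more abundant E protein genes changed little, with log2 fold changes of -0.18 for TCF3 and 0.12 for TCF12, and ID2 rose by 0.12. The number of higher calls in this list was 0 under library size alone and at a threshold of 0.01. It was 1 under upper-quartile factors, DESeq2's Wald test, a filter at a mean of 50 counts, the replicate block, thinned counts and each fit without 1 library. ID1 was not called (8.18 and 6.53 CPM, edgeR adjusted p 0.106).

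**Figure D4:**
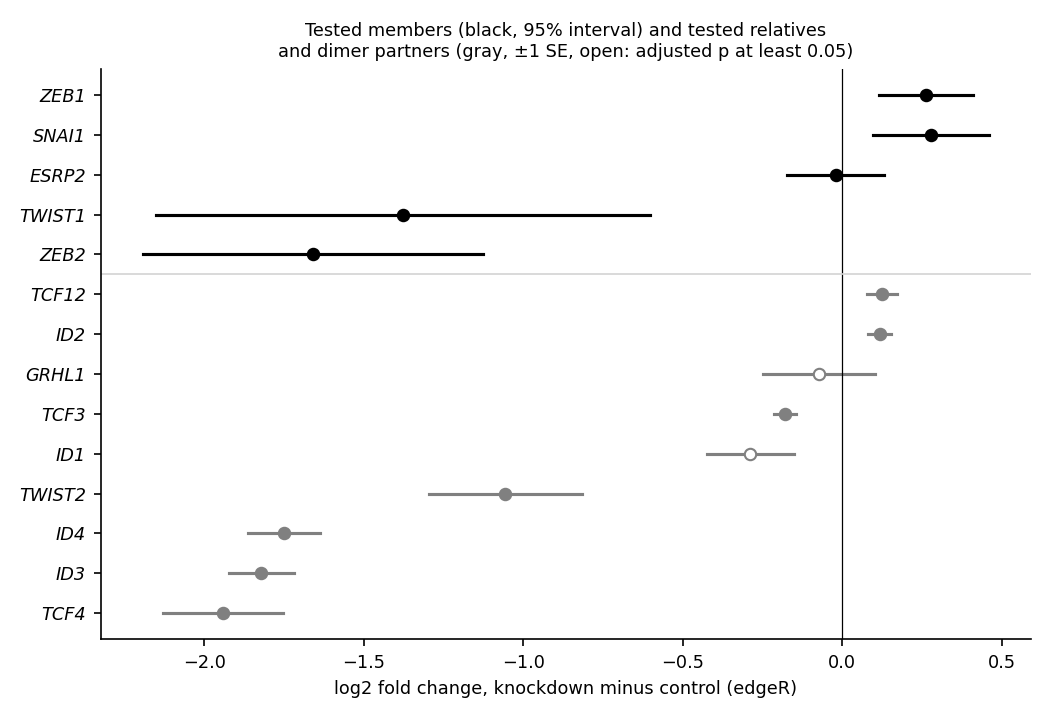
Log2 fold changes (knockdown minus control, edgeR) of the 5 tested members (black, 95% interval) and of 9 tested relatives and partners (gray, ±1 SE; open circles, not called). ZEB1 and SNAI1 lie near 0.3, ESRP2 at 0, and ZEB2, TWIST1, TWIST2, TCF4, ID3 and ID4 between -2 and -1.

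Other transcription factors with a known part in the epithelial or mesenchymal state were called in both directions, 6 higher and 4 lower of 15 tested (20 listed; median log2 fold change 0.23). Over all tested genes the shares were 19.3% higher and 19.2% lower. HNF4A, a regulator of intestinal and hepatic epithelium, rose from 88.4 ± 1.49 to 140 ± 5.27 CPM (SD, n = 3 each). FOXC1, a forkhead factor linked to the mesenchymal state, fell from 118 ± 1.60 to 70.6 ± 2.20 CPM (SD, n = 3 each). TFAP2A fell by a log2 fold change of -0.93 and FOXA1, a pioneer factor of endoderm, by -1.54. KLF5, an intestinal epithelial factor, had a log2 fold change of 0.46, and YAP1 and WWTR1, the effectors of Hippo signalling, had 0.28 and 0.39, all called.

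Of the 19 other RNA-binding protein genes known for epithelial or mesenchymal splicing, all tested, none was called higher and 10 were called lower (median log2 fold change -0.13). Among all tested genes, 19.3% were called higher and 19.2% lower. CELF2 was at 7.71, 9.00 and 8.29 CPM in control and at 1.88, 1.23 and 2.10 CPM in knockdown, a log2 fold change of -2.23 ± 0.18 (SE; edgeR adjusted p 1.61e-08). MBNL3, of the muscleblind family, fell by -1.71 ± 0.16, and QKI, which promotes mesenchymal exon choice and circular RNA formation, by -0.43 ± 0.06 (log2, SE). RBM47, an epithelial splicing regulator, fell from 2.75 to 0.913 CPM. Of the abundant genes, PTBP1 and SRSF1 were not called (log2 fold changes 0.01 and -0.05), and HNRNPM was called at -0.10. The lower calls numbered 6 without control library 2 and 6 at a threshold of 0.01. NOVA1, counted among the 10, averaged 2.01 CPM in control. In knockdown it averaged 0.543 CPM, under the filter's level of 0.743 CPM, so its lower call is no independent sign of direction.

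Of 19 corepressors that ZEB, SNAI and OVOL proteins recruit, 4 were called higher, 3 lower and 12 were not past the threshold (median 0.01), beside 38.5% called either way among all tested genes. CTBP1 and CTBP2, the partners of ZEB proteins, were not called (log2 fold changes -0.01 and 0.05). HDAC3 fell from 102 ± 1.61 to 67.1 ± 1.74 CPM and HDAC1 from 194 ± 1.56 to 152 ± 2.35 CPM, while RCOR1, a partner of the histone demethylase KDM1A, rose from 83.9 ± 3.04 to 105 ± 4.71 CPM (SD, n = 3 each). Genes of kinases, ubiquitin ligases and deubiquitinases that act on SNAI, ZEB or TWIST proteins were listed too. Of 18 tested, 1 was called higher and 4 lower (median 0.02), beside 19.3% and 19.2% of all tested genes. The higher call, of PSMD14 at a log2 fold change of 0.09, was lost under 2 other scalings, DESeq2's Wald test, a filter at a mean of 50 counts, the replicate block, a threshold of 0.01 and 5 of the 6 fits without 1 library. GSK3B and BTRC, which mark Snail for degradation, were not called. SIAH2, a ubiquitin ligase gene, fell by a log2 fold change of -0.97 ± 0.13, PAK1 by -0.45 ± 0.07 and PRKD1 by -1.44 ± 0.26 (SE). Protein levels were not measured.

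TGF-beta signalling is a known inducer of SNAI1 and the ZEB genes. Of its 19 listed genes, all tested, 10 were called higher and 3 lower (median 0.18), beside 19.3% and 19.2% of all tested genes. The ligand gene TGFB1 rose from 109 ± 3.51 to 157 ± 3.35 CPM, and the receptor gene TGFBR2 from 42.9 ± 1.49 to 68.7 ± 1.62 CPM (SD, n = 3 each). SMAD3, a receptor-activated SMAD, had a log2 fold change of 0.36 and was called. SMAD4, the shared partner of the SMADs, was at 7.55, 8.52 and 9.65 CPM in control and at 2.09, 2.52 and 2.65 CPM in knockdown (log2 fold change -1.78 ± 0.16, SE; edgeR adjusted p 5.54e-08). HMGA2, a known target of the pathway, had a log2 fold change of 0.23 and was called. LTBP1 and SMAD7 were called lower, with log2 fold changes of -1.17 and -0.15, and SMAD7 was close to the threshold (edgeR adjusted p 0.0481).

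Epithelial genes that ZEB and SNAI proteins repress or GRHL2 activates were called in both directions. Of 28 listed, 21 were tested, 10 called higher and 5 lower (median log2 fold change 0.26), beside 19.3% and 19.2% of all tested genes. CDH1, the E-cadherin gene and classical target of these repressors, had 5, 5 and 0 reads in control and 1, 2 and 2 reads in knockdown and was not tested. The tight junction gene CLDN4 was at 78.1, 72.8 and 75.7 CPM in control and at 161, 151 and 162 CPM in knockdown (log2 fold change 1.09 ± 0.04, SE; edgeR adjusted p 8.52e-13). CLDN3 and CLDN7, of the same family, rose by 0.87 and 0.86 (log2) at low levels. ERBB3, a receptor of the EGFR family, was at 7.87, 7.64 and 8.97 CPM in control and at 20.2, 21.3 and 21.6 CPM in knockdown. In the other direction, MAP7, which encodes a microtubule-associated protein, fell from 8.04 ± 0.380 CPM to 3.21 ± 0.590 CPM (SD, n = 3 each), and EPCAM, the epithelial adhesion gene, from 40.2 to 33.9 CPM.

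Genes known to be higher in the mesenchymal state were called in both directions too. Of 28 listed, 20 were tested, 6 called higher and 10 lower (median log2 fold change -0.16), beside 19.3% and 19.2% of all tested genes. VIM, the vimentin gene, was very abundant in every library, at 1193, 1160 and 1164 CPM in control and 1043, 1042 and 1075 CPM in knockdown, a fall of small size (log2 fold change -0.12 ± 0.03, SE; edgeR adjusted p 0.00117). Per kb, VIM stood at percentile 99.3 of tested genes in control. CDH1 stood at percentile 0.0, but it did not pass the filter, so this place among tested genes is largely set by the filter. CDH2, which encodes N-cadherin, stood at 20.4, 20.9 and 19.3 CPM in control and 5.51, 5.04 and 5.13 CPM in knockdown. The matrix gene SPARC rose by 0.50 ± 0.03 and the fibronectin receptor gene ITGA5 by 0.54 ± 0.06 (log2, SE). LOX and COL5A2 fell by -1.94 and -1.83. Of the lower genes, the collagen genes COL1A1 and COL3A1 were highest in control library 1, as in the fibroblast marker list. COL1A1 had 193, 72 and 67 reads and COL3A1 had 34, 19 and 5 reads in the control libraries. Without control library 1, 7 genes were called higher and 7 lower.

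ESRP1 and ESRP2 act on exons, which totals per gene do not show. Of 19 genes with exons known to be spliced by the ESRP proteins, all tested, 8 were called higher and 2 lower (median 0.08). Among all tested genes these shares were 19.3% and 19.2%. FGFR3, a fibroblast growth factor receptor gene, was at 15.3, 14.1 and 14.6 CPM in control and at 3.63, 4.28 and 5.13 CPM in knockdown. CD44 and CTNND1, the classical ESRP-spliced genes, were not called (log2 fold changes -0.03 and 0.07). OSBPL3 rose by 0.34 ± 0.04 (log2, SE).

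**Figure D5:**
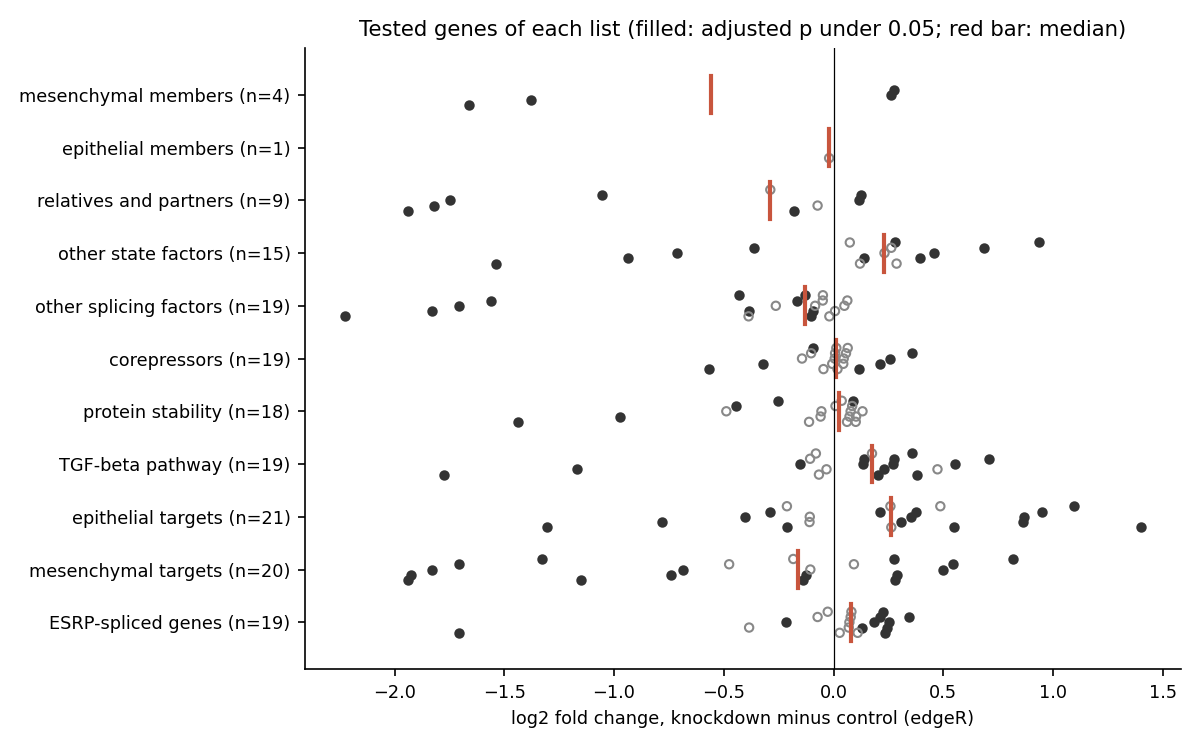
Log2 fold changes (knockdown minus control, edgeR) of the tested genes of each list; filled points are called at an adjusted p under 0.05, open points are not, and red bars are medians. All lists except that of other splicing factors hold called genes on both sides of 0 or, for the epithelial members, a single gene that was not called.

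The lists beside the members hold 188 distinct genes, of which 156 were tested and 46 were called in each direction. Of these, 20 were called and at least 2-fold lower and 2 were called and at least 2-fold higher, beside 4.32% and 0.586% of all tested genes, where the larger changes lay on the lower side too. Of the 20, 16 had a mean under 100 reads, and the knockdown libraries were the deeper ones. With all libraries thinned to the depth of the smallest, the log2 fold change of ZEB2 was -1.80 (edgeR adjusted p 3.1e-05). In RNA from a whole culture, fewer cells that express a gene and less RNA per cell cannot be told apart.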

How the data were processed

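The genes and lists were chosen with earlier results of these data known, and the lists rest on general knowledge of each process. The named genes were the 10 members, their paralogues, IRS2, CDH1, VIM and CDH2, the 3 tested genes with the smallest p past the threshold in each list, and the 3 nearest profiles of the member with the smallest p in each group, drawn from genes averaging 100 counts or more. A gene that this rule names is not reported here, and other named genes were chosen after their values were seen. Libraries were made by the submitters from 1000 ng of total RNA with a NEBNext Ultra II RNA kit, per the labels' protocols. The submitters' processing notes name STAR 2.6.1a, Salmon, DESeq2 and hg19, and the annotation, strand setting and counting rule are not given in the sources used here. The authors deposited whole-number read counts per gene symbol, 1 column per library. A further table, deposited by the authors without a unit, holds a normalized signal, in which a library's counts are divided by a constant of 0.847 to 1.25, for the 16213 genes with at least 10 counts in all. It lists 7 of the 10 members and was used for no test.

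The counts were tested with edgeR 4.0.16 (R 4.3.3) with TMM factors, the filterByExpr filter (10 counts, here 0.743 CPM), the quasi-likelihood F-test (group as single term), and Benjamini-Hochberg adjustment over all tested genes. The 6 libraries held 11816973 to 18114656 counts. CPM values are counts scaled to the library total, standard errors are log2 fold changes over the square root of F, and intervals are 95%. Replicate libraries differed by more than counting error (chi-square per degree of freedom 1.41 to 2.78). Alternatives were DESeq2 1.42.0 size factors and Wald test, limma 3.58.1 voom, other scalings and filters, thinned counts, a threshold of 0.01, a replicate block and leaving out each library. Gene positions, lengths and 3′ UTRs came from GENCODE 44 on GRCh37, which matched 96.3% of tested symbols and may differ from the annotation used for counting. The scripts were tested on simulated data.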

Additional observations from a re-analysis of the deposited data

How the results depend on the processing

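The 36 named genes that could be tested gave 571 values over 16 alternatives, of which 564 kept both direction and call. The others belong to SNAI1, TWIST1 and ESRP2. SNAI1 was not past the threshold with the Wald test of DESeq2 or at a threshold of 0.01 (adjusted p 0.0163), which left 1 mesenchymal gene called higher in place of 2, and over the fits that leave out 1 library this count was 1 to 2. The number of mesenchymal genes called lower was 2, was 0 with a mean of at least 50 counts, a filter that removes ZEB2 and TWIST1, was 1 with counts thinned to the smallest library, where TWIST1 was not tested, and was 1 to 2 over the fits that leave out 1 library. It was 3 with no filter, where SNAI2 was tested. ESRP2 changed sign without control library 1 (0.0378) and without knockdown library 2 (0.0234), ran from -0.0533 to 0.0378 over the fits that leave out 1 library, and was not called in any alternative (adjusted p 0.621 to 0.943). ZEB2 kept its call in 15 alternatives (log2 fold change -1.86 to -1.48). No epithelial gene was called in any alternative. Both groups carry replicate numbers 1 to 3 in their titles. The deviations of same-numbered libraries had correlations of 0.0446, -0.0111 and -0.0982, so no large effect shared within a number was seen. Whether same-numbered libraries were prepared together is not given in the sources used here. With the replicate block 4861 genes were called in place of 5328, and the log2 fold changes were 0.26 for ZEB1, -1.64 for ZEB2, 0.28 for SNAI1 and -1.37 for TWIST1, with the same calls. The order of levels per length was the same with the longest transcript of each gene. Depth limits SNAI2, ESRP1, OVOL1, OVOL2 and GRHL2, whose libraries held 0 to 14 reads.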
